A study of Mus musculus with 8 samples.

Results

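The straight proximal tubule (segment S3) was represented by 4017 of 81391 quality-filtered nuclei (4.94%) from single-nucleus RNA-seq of whole mouse kidney. Members were chosen by measured UMI counts: a nucleus was taken as S3 when it had at least 500 genes, at least 800 unique molecular identifiers (UMIs) and at most 2% mitochondrial UMIs, and held at least 2 UMIs each of Slc7a13 (ENSMUSG00000041052) and Cyp7b1 (ENSMUSG00000039519). The series comprised 8 kidneys of male mice on the C57BL/6J background, 1 mouse per library and 2 mice in each of 4 groups. Mice referred to as cKOt carried Bmal1lox/lox, Pax8-rtTA and LC-1 Cre, so that doxycycline (DOX) switched on a Cre recombinase in Pax8-expressing cells, that is along the renal tubule, and inactivated Bmal1, the clock gene listed as Arntl. Ctrl mice were their Bmal1lox/lox littermates without the Cre system. Both genotypes had received DOX (2 mg/ml, with 20 mg/ml sucrose) in the drinking water for 2 weeks from 8 weeks of age, so the exposure to DOX was common to all groups. Kidneys were taken at ZT4, in the light phase, or at ZT16, in the dark phase, hours being counted from lights on. The comparisons asked how gene expression in S3 nuclei differed between the times of day in Ctrl, and between genotypes at each time.

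S3 is the end of the proximal tubule, where it runs straight from the cortex into the outer stripe of the outer medulla. Its cells take up the sugar, amino acids and other solutes that the convoluted segments (S1 and S2) leave in the filtrate, secrete organic anions and cations, and draw their energy largely from fatty acid oxidation in mitochondria and peroxisomes. Slc7a13 encodes a transporter of aspartate, glutamate and cystine, and Cyp7b1 an oxysterol hydroxylase, and in male mice both are used as markers of S3. In the circadian clock, Bmal1 pairs with Clock or Npas2 on E-box DNA elements and drives the Per and Cry repressors, the nuclear receptors Nr1d1 and Nr1d2 (REV-ERB) and the bZIP factor Dbp, which act through nuclear receptor elements and D-boxes. In turn, Nr1d1 and Nr1d2 repress Bmal1, Npas2 and Cry1.

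To show the DNA these clock factors recognise, the promoters of 4 genes named in the results are printed as the 250 bases before the transcription start (RefSeq, GRCm38.p6, 5′ to 3′ on the strand of the gene), with the searched motif in capitals. The 4 were picked from a larger set looked up, and only windows that held the motif are printed. Cry1 (chr10:85185055-85185304, minus strand) and Rhobtb1 (chr10:69212407-69212656, plus strand, 1 of 3 windows listed for the gene, the others without the motif) each held the E-box CACGTG, 60 and 67 bases before the start. Per3 (chr4:151044666-151044915, minus strand) held the D-box TTATGTAA 205 and 158 bases before its start, and Nr1d2 (chr14:18239107-18239356, minus strand) held the nuclear receptor half-site AGGTCA 77 bases before its start.
Cry1: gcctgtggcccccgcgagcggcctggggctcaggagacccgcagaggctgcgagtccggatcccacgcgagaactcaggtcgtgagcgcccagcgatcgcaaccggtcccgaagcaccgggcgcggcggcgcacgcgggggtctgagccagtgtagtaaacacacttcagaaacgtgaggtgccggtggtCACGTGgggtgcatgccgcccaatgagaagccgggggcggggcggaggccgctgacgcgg
Rhobtb1: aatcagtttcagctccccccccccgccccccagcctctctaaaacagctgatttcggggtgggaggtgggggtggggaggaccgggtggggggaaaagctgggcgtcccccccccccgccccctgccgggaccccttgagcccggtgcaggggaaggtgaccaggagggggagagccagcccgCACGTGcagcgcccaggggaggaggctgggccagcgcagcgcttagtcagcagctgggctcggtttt
Per3: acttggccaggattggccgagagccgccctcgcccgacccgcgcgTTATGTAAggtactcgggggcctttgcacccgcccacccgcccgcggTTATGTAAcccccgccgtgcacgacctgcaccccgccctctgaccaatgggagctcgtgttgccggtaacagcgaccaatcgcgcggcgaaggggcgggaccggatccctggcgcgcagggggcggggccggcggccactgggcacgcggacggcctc
Nr1d2: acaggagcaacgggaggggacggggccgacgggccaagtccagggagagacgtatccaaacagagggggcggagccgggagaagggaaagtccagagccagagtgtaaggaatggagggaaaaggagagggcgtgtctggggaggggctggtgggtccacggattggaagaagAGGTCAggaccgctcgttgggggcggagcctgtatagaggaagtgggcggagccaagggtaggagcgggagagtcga
Read on both strands in windows of 250 bases before to 50 bases after the start, CACGTG was present in 7.15% of 32851 promoters, TTATGTAA in 0.938% and AGGTCA in 16.3%. Counted by gene, in any of its windows, the shares of 27025 genes were 8.09, 1.11 and 18.1%. Of 20 listed clock genes, 17 had a promoter entry, of which 5 held CACGTG, 1 TTATGTAA and 5 AGGTCA. The windows of Npas2, Arntl, Nr1d1 and Dbp held neither CACGTG nor TTATGTAA. These are matches of letters and no measure of binding.

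The number of S3 nuclei per library was 416 and 512 in Ctrl at ZT4, 503 and 460 in Ctrl at ZT16, 548 and 497 in cKOt at ZT4 and 633 and 448 in cKOt at ZT16. They carried 35151578 UMIs in all, 2655746 to 6757019 per library, with a median of 7670 UMIs per nucleus. S3 nuclei made up 4.08 to 7.23% of the quality-filtered nuclei of a library, with 95% Wilson intervals from 3.73 to 7.79% that cover counting error only. After each nucleus was thinned to 2000 UMIs, leaving out 14510 shallower nuclei, the share was 2.79 to 3.98%. The convoluted-tubule nuclei used for comparison (PCT, 9723 nuclei with at least 2 UMIs each of Slc5a12 and Slc7a8) had medians of 4254 to 7099 UMIs.

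Markers that the gate did not use were compared between S3 and PCT nuclei. Of 18 further S3 markers, 16 were higher in S3 than in PCT nuclei in 8 of 8 libraries. The markers were listed with earlier results of these data known, and PCT nuclei were chosen by S1 and S2 genes. The comparison is thus a description and no independent check of identity. The summed level of all 18 was 9115 to 12369.6 CPM in S3 against 1889.8 to 4988 CPM in PCT. Levels in CPM are UMIs relative to the total UMIs of the nuclei, and for single genes by library that total was scaled. For sums over a list, and for the classes of nuclei around the gate given below, the total was not scaled. The 14 S1 and S2 markers, which include both genes of the PCT gate, summed to 2352 to 3583 CPM in S3 and 16725 to 18579 CPM in PCT. Cyp2e1 and Cyp4b1, listed for S3, were lower in S3 than in PCT in 8 of 8 libraries. The 120 S3 nuclei that also met the PCT gate were 1.19 to 2.39% of S3 nuclei in the Ctrl libraries and 2.37 to 6.00% in the cKOt libraries, and 3598 S3 nuclei (89.6%) held more UMIs of the S3 list than of the S1 and S2 list.

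**Figure D1:**
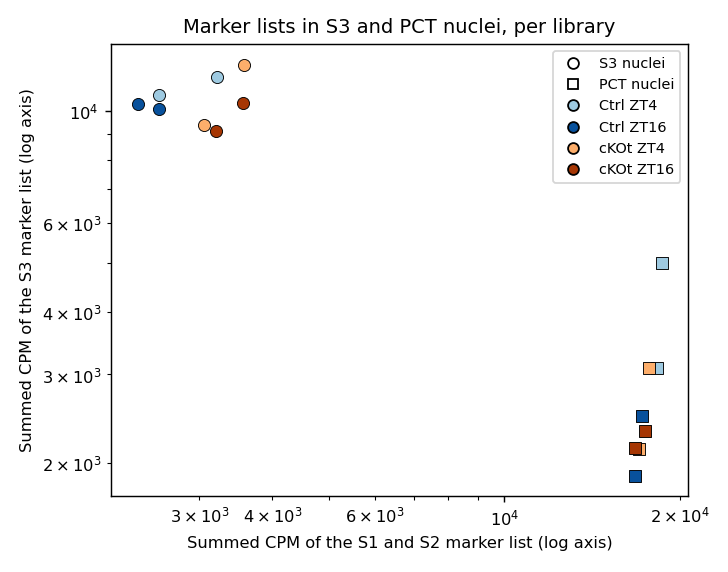
Summed CPM of the S1 and S2 marker list (x axis) against that of the S3 marker list (y axis), both on log axes, with 1 circle per library for S3 nuclei and 1 square per library for PCT nuclei, coloured by group. The S3 circles lie at 9115 CPM or more on the S3 list and at 3583 CPM or less on the S1 and S2 list, apart from all PCT squares.

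Members near the gate had less of the S3 list. The 171 nuclei with exactly 2 UMIs of both genes had 2924 CPM of the S3 list and 5791 CPM of the S1 and S2 list, against 10546 and 3078 CPM over all S3 nuclei. Just outside, 1302 nuclei with 1 UMI of Slc7a13 and at least 2 of Cyp7b1 had 3033 and 3994 CPM, and 1775 nuclei with 1 UMI of Cyp7b1 and at least 2 of Slc7a13 had 7458 and 7414 CPM. A class larger than the gate itself, 6208 nuclei with at least 2 UMIs of Slc7a13 and none of Cyp7b1, had 7968 and 7931 CPM. The 5059 nuclei with at least 2 UMIs of Cyp7b1 and none of Slc7a13 had 1537 and 4119 CPM. Of the UMIs in quality-filtered nuclei, 43.8% of those of Slc7a13 and 80.0% of those of Cyp7b1 lay in S3 nuclei. The share of S3 nuclei that failed a gate of 3 UMIs was 14.2, 18.4, 12.7 and 15.0% in the Ctrl libraries and 25.5, 19.1, 26.9 and 25.7% in the cKOt libraries, higher in each cKOt library than in any Ctrl library. Slc7a13 stood at 1808 and 1588 CPM in Ctrl at ZT4, 1532 and 1996 in Ctrl at ZT16, 1268 and 1257 in cKOt at ZT4 and 1138 and 1379.8 in cKOt at ZT16. Cyp7b1 stood at 6006 and 3490.1 CPM in Ctrl at ZT4, 2631 and 3959 in Ctrl at ZT16, 6189 and 4371 in cKOt at ZT4 and 5829 and 6052 in cKOt at ZT16. Because these levels set membership, no test is attached to them. UMIs of the gate genes were found in other types too, where 20.8% of PCT nuclei held a UMI of Slc7a13 and 25.9% a UMI of Cyp7b1 (median depth 5407 UMIs), and 22.3% of nuclei of the thick ascending limb (TAL) held a UMI of Slc7a13 and 24.1% a UMI of Cyp7b1 at a median depth of 4260 UMIs.

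UMIs of genes listed as markers of other cell types were present in S3 nuclei. At least 2 marker genes of another type, with 2 UMIs or more each, were found in 1558 S3 nuclei (38.8%), mostly of the TAL (1291 nuclei), and no doublet caller was run. By the same rule, TAL markers were found in up to 42.2% of the PCT nuclei of a library, against up to 45.2% of the S3 nuclei. Summed TAL markers were at 787 to 1372 CPM in Ctrl and 1321 to 1607 CPM in cKOt in S3 nuclei, and at 1140.2 to 1885 CPM in Ctrl and 1369.7 to 1816 CPM in cKOt in PCT nuclei. Slc12a1 and the tight junction gene Cldn10, at means of 411 and 525 CPM in S3 (scaled jointly with PCT), made up most of the TAL sum. In PCT nuclei the means of Slc12a1 and Cldn10 were 588 and 686 CPM. Whether these UMIs came from TAL cells or from the proximal nuclei themselves was not tested, so the share above is no count of mixed nuclei. Immune markers summed to 121 to 195 CPM in Ctrl and 72.8 to 125 CPM in cKOt, nearly all of it Csf1r (62.6 to 178 CPM), with 4 of the 6 at a mean under 1 CPM. Endothelial markers summed to 134 to 193 CPM in Ctrl and 135 to 224 CPM in cKOt and collecting duct markers to 54.2 to 158 CPM in Ctrl and 53.9 to 101 CPM in cKOt. No gene of these lists, nor of the lists for distal convoluted and connecting tubule, intercalated cells, thin limb, stroma and podocytes, passed the genotype test below. Directions differed by list. All 5 collecting duct markers were lower in cKOt (median log2 fold change -0.58). Higher were 5 of 5 intercalated (0.55), 5 of 5 podocyte (0.53), 4 of 4 distal convoluted and connecting tubule (0.45), 5 of 6 TAL (0.40) and 5 of 6 endothelial markers (0.12). Medians were below 0 for thin limb, stroma and immune cells. Without the 1558 nuclei with such markers, the averaged genotype contrast had 215 calls against 208, with 174 genes called in both. Barcodes found in more than 1 library numbered 823, of which 3 were S3 in both. In a chi-square test of their counts over genes, replicates differed by 7.21 to 18.4 times the value that sampling alone gives, so no library was a copy of the other replicate of its group.

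The other genes that set S3 nuclei apart from PCT nuclei are given as a description, because the gates chose both classes. Among genes of at least 20 CPM, 304 of 6733 mRNAs and 44 of 342 lncRNAs were at least 2-fold higher in S3 than in PCT in 8 of 8 libraries, and 312 mRNAs and 29 lncRNAs were at least 2-fold lower. Slc22a19, an organic anion transporter of the list of S3 markers, had the largest median ratio of a gene outside the gate (log2 ratio 5.86, 346 ± 189 CPM against 4.55 ± 1.86 CPM, mean ± SD over 8 libraries). Esr1, the estrogen receptor alpha, was at 508 ± 135 CPM against 15.7 ± 5.72 CPM. Adgrb3, an adhesion G protein-coupled receptor, was at 184 ± 159.7 CPM against 3.04 ± 1.67 CPM, and Slc5a4a, of the sodium-glucose transporter family, at 101 ± 36.3 CPM against 1.93 ± 1.63 CPM. Vmn1r18, annotated as a vomeronasal receptor, was at 411 ± 179 CPM against 15.0 ± 20.8 CPM and overlapped the lncRNA 4930533I22Rik, so reads of the pair cannot be assigned with certainty. Among lncRNAs, Sox2ot was at 821 ± 329 CPM against 33.6 ± 10.5 CPM, and Gm36723 at 316 ± 100.1 CPM against 9.18 ± 4.42 CPM. On the PCT side, Slc5a2, the main glucose transporter of the early tubule, had a median log2 ratio of -4.71, and Adra1a, an adrenergic receptor, -4.15. For these ratios and for all PCT levels of single genes, CPM were scaled jointly over S3 and PCT sums, which sets S3 levels at 0.953 to 0.98 of those given in the other paragraphs.

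The targeted gene Arntl (ENSMUSG00000055116) stood at 18 and 24.9 CPM in Ctrl at ZT4, 88.7 and 113 in Ctrl at ZT16, 281 and 181 in cKOt at ZT4 and 259 and 237 in cKOt at ZT16 in S3 nuclei, higher in each cKOt library than in any Ctrl library. Averaged over both times the difference between genotypes was 2.35 ± 0.18 (SE) on the log2 scale (adjusted p = 0.000212). UMIs were counted over the whole gene and not over the part removed by Cre, so this level is no check of the deletion. PCT nuclei of the same mice had 10.6 to 204 CPM in Ctrl and 179 to 274 CPM in cKOt, so the genotypes overlapped there. In PCT too the Ctrl libraries at ZT4 were below every cKOt library, but those at ZT16 reached into the cKOt range.

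All tests between groups were run on UMIs summed over the S3 nuclei of each library (edgeR quasi-likelihood, Benjamini-Hochberg adjusted over all genes tested, called below 0.05). Noncoding genes overlap several genes named below on the opposite strand (Gm45355 with Arntl, A930033H14Rik with Rhobtb1, Gm19744 with Tenm3, Gm15485 with Cdh2, Gm16277 with Gfra1), and with the strand setting not stated their UMIs cannot be told apart. A fold change is cKOt over Ctrl, or ZT16 over ZT4, on the log2 scale with its SE, and the averaged genotype contrast sets 4 Ctrl against 4 cKOt mice. With 2 mice per group, the spread was estimated over all 4 groups together.

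Clock genes differed between genotypes in S3. Averaged over both times, 4 of the 19 clock genes tested rose in cKOt (Npas2, Arntl and Cry1 among them) and 3 fell (Nr1d2, Per3 and Rorb), against 1.39% of the 14912 genes tested (208 called), and the list had a median log2 fold change of -0.38 beside 0.00 for all genes. Npas2, the partner of Bmal1, was at 7.89 and 22.6 CPM in Ctrl at ZT4, 58.6 and 86.6 in Ctrl at ZT16, 499 and 512 in cKOt at ZT4 and 518 and 537 in cKOt at ZT16. The cKOt libraries lay within a narrow band above the highest Ctrl library, and the difference was 3.93 ± 0.27 (SE) on the log2 scale (adjusted p = 7.84e-05). Cry1, a repressor of the clock whose E-box is printed above, was at 2.25 and 2.15 CPM in Ctrl at ZT4, 12.6 and 19.7 in Ctrl at ZT16, 27.3 and 19.2 in cKOt at ZT4 and 23.7 and 31.2 in cKOt at ZT16. Of the Ctrl libraries, only replicate 2 at ZT16 reached the lowest cKOt library (log2 fold change 2.08 ± 0.24 (SE), adjusted p = 0.00188).

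Of the genes that fell, Nr1d2 and Per3 encode repressors of the loop. Nr1d2 was at 128 and 139.7 CPM in Ctrl at ZT4, 66.5 and 68.0 in Ctrl at ZT16, 12.5 and 18.3 in cKOt at ZT4 and 6.89 and 12.0 in cKOt at ZT16, with every cKOt library below every Ctrl library (log2 fold change -3.00 ± 0.19 (SE), adjusted p = 6.94e-05). Per3, the period gene whose D-boxes are printed above, was at 64.6 and 71.4 CPM in Ctrl at ZT4, 46.2 and 35.9 in Ctrl at ZT16, 6.75 and 7.20 in cKOt at ZT4 and 13.6 and 11.1 in cKOt at ZT16 and did not overlap between genotypes (log2 fold change -2.50 ± 0.16 (SE), adjusted p = 6.94e-05), and it shares its locus with Uts2 on the opposite strand. Rorb was less firmly called (adjusted p = 0.0244), since it missed the threshold in 8 of 18 other settings, 6 of them the omission of a single library, with adjusted p up to 0.132. Nr1d1 was at 11.6 and 15.7 CPM in Ctrl at ZT4, 0.575 and 0.810 in Ctrl at ZT16, 2.86 and 2.40 in cKOt at ZT4 and 0.147 and 0.543 in cKOt at ZT16, so it was high only in Ctrl at ZT4, and the averaged contrast did not pass (-1.76, adjusted p = 0.127). Dbp was at 21.4 and 11.4 CPM in Ctrl at ZT4, 0.958 and 1.08 in Ctrl at ZT16, 0.779 and 2.18 in cKOt at ZT4 and 0.733 and 1.09 in cKOt at ZT16, again high only in Ctrl at ZT4 (-1.79, adjusted p = 0.118). At ZT4 alone both were called lower in cKOt, Nr1d1 with a log2 fold change of -2.39 (adjusted p = 0.0434, lost in 14 of 18 other settings with adjusted p up to 0.294) and Dbp with -3.38 (adjusted p = 0.0284, lost in 4 of 18 with adjusted p up to 0.179). In all, 8 of 19 clock genes tested were called at ZT4, where 0.36% of all genes were, and 3 of 17 at ZT16, where 0.626% were, a difference that was not tested. Clock itself ranged from 119 to 192 CPM in Ctrl and 168 to 228 CPM in cKOt and did not pass (0.48, adjusted p = 0.197), nor did the output factor Tef (-0.91, adjusted p = 0.0662). Thra, the thyroid hormone receptor alpha gene, which overlaps Nr1d1 on the opposite strand, was at 42.4, 50.5, 47.5 and 39.1 CPM in Ctrl against 131, 155, 158 and 139 CPM in cKOt (log2 fold change 1.69 ± 0.14 (SE), adjusted p = 0.000212).

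**Figure D2:**
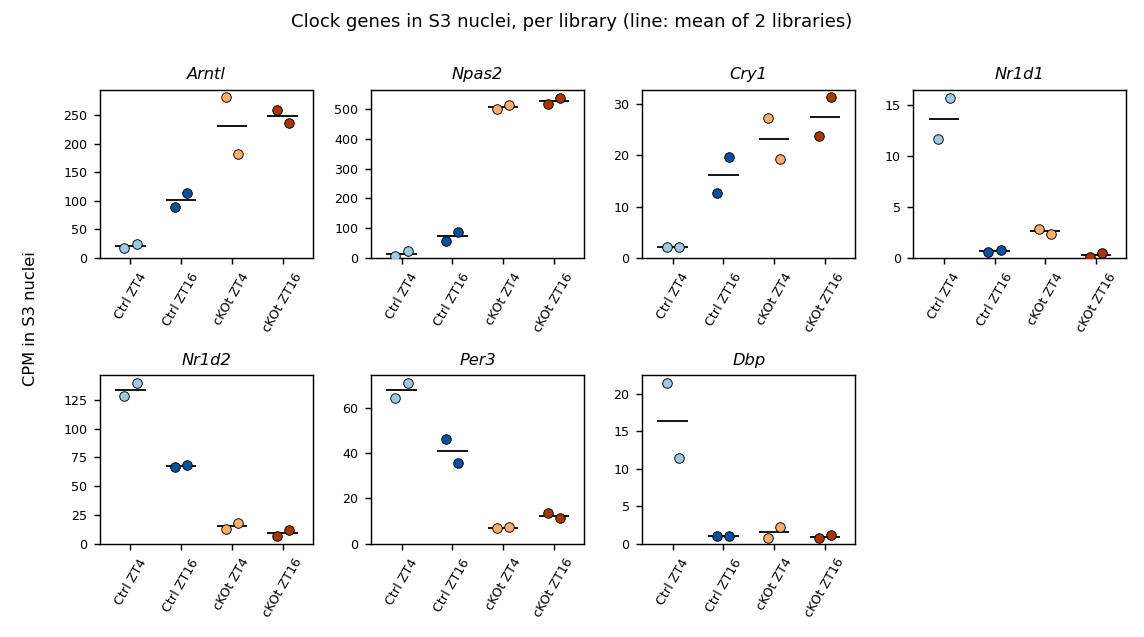
CPM of 7 clock genes in S3 nuclei, in 1 panel per gene with the 4 groups on the x axis, 1 point per library and a short line at the mean of 2 libraries. Arntl, Npas2 and Cry1 are highest in both cKOt groups, Nr1d2 and Per3 lowest there, and Nr1d1 and Dbp are high only in Ctrl at ZT4.

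Between ZT4 and ZT16, 10 of 14221 genes tested (0.0703%) were called in Ctrl S3 nuclei, 3 higher and 7 lower at ZT16, and 5 of the 10 were clock genes. Arntl (2.21, adjusted p = 0.023) and Cry1 (2.85, adjusted p = 0.0352) were among those higher at ZT16. Nr1d1 fell from 104 UMIs in the 2 libraries at ZT4 to 6 UMIs at ZT16, or 4.80% of its ZT4 level after scaling to depth (95% interval for counting error 1.72 to 10.8%), and Dbp from 110 to 9 UMIs, or 6.81% (3.03 to 13.4%). The calls of Cry1 and Dbp were lost in 12 and 13 of 18 other settings, the replicate block, the gate of 3 UMIs and an equal number of nuclei among them, with adjusted p up to 0.338 and 0.33. Alk, a receptor tyrosine kinase, was at 287 and 229 CPM in Ctrl at ZT4, 39.7 and 53.4 in Ctrl at ZT16, 198 and 189 in cKOt at ZT4 and 62.6 and 89.1 in cKOt at ZT16, lower at ZT16 than at ZT4 in Ctrl with no overlap (log2 fold change -2.47 ± 0.24 (SE), adjusted p = 0.0139). The other calls were A330033J07Rik, Gm44764, Gm11099 and Gm28905, all lower at ZT16, of which Gm44764 overlaps Aoc1. These calls rest on 4 mice, because no gene was called without Ctrl at ZT4 replicate 1, Ctrl at ZT16 replicate 1 or Ctrl at ZT16 replicate 2, and 2 were called without Ctrl at ZT4 replicate 2. Leaving out a cKOt library at ZT4 gave 17 calls. Of the other lists, none had a called gene. In simulated counts this test found 21% of 2-fold changes, so the number of calls is no count of the genes that change with time.

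In cKOt S3 nuclei no gene of 14468 tested (0.0%) was called between ZT4 and ZT16 by edgeR, with 761 at an unadjusted p under 0.05 and 9 by DESeq2, and the smallest adjusted p was 0.295. The levels of Arntl and Cry1 in cKOt had log2 fold changes of 0.10 and 0.24 over time. Alk had -1.36 ± 0.23 with an adjusted p of 0.315, so its lower ZT16 level in cKOt was not called. The test of whether time effects differed between genotypes (the interaction) called 0 of 14912 genes (0.0%), with 618 at an unadjusted p under 0.05, 8 by DESeq2, and a smallest adjusted p of 0.63. For Arntl the difference of the time effects was -2.11 ± 0.36 (adjusted p = 0.672), so it did not pass either.

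By time of day, 51 of 14159 genes (0.36%) differed between genotypes at ZT4, 28 higher and 23 lower in cKOt, and 91 of 14543 (0.626%) at ZT16, 38 higher and 53 lower. The fold changes of the contrasts rest on different mice, but the spread was shared over all groups, so the calls are not independent. In both contrasts 34 genes were called, all in the same direction, which is 66.7% of the ZT4 calls and 37.4% of the ZT16 calls. Of the 49 ZT4 calls that were tested at ZT16, 48 had the same sign there, and 88 of the 91 ZT16 calls had the same sign at ZT4. The share of same signs over all genes tested is not given here. The genes called at both times included Fhad1, Rhobtb1, Hao2, Tenm3, Ces1d, Cyp2a4, Adgrb3, Mfsd2a, Npas2, Nr1d2 and Per3. The counts depended on single mice. At ZT4 there were 12 calls without Ctrl at ZT4 replicate 1, 21 without Ctrl at ZT4 replicate 2 and 32 without cKOt at ZT16 replicate 1. At ZT16 there were 18 and 52 calls without Ctrl at ZT16 replicate 1 and 2, 6 and 9 without cKOt at ZT16 replicate 1 and 2, and 158 and 156 without cKOt at ZT4 replicate 1 and 2.

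Averaged over the times, 208 genes were called in S3, 89 higher and 119 lower in cKOt, of which 173 were among 12834 mRNAs and 33 among 1967 lncRNAs tested. The median size of a called change was 1.34 on the log2 scale. Omitting a library gave 132 and 120 calls without Ctrl at ZT4 replicate 1 and 2, 111 without Ctrl at ZT16 replicate 1, 96 and 107 without cKOt at ZT16 replicate 1 and 2, and 328 without cKOt at ZT4 replicate 2. Each gene given with values in the next 4 paragraphs, unless stated otherwise, was called under every one of the 19 other settings, single-library omissions included.

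Among genes higher in cKOt, Fhad1 (ENSMUSG00000051435), a gene for a protein with a forkhead-associated domain, had the smallest adjusted p. It was at 1.88 and 4.51 CPM in Ctrl at ZT4, 2.11 and 3.24 in Ctrl at ZT16, 164 and 231 in cKOt at ZT4 and 234 and 229.5 in cKOt at ZT16, under 5 CPM in every Ctrl library and without overlap (log2 fold change 6.14 ± 0.24 (SE), adjusted p = 2.31e-06). Noncoding transcripts Fhad1os1, Fhad1os2 and 4930455G09Rik lie on its opposite strand. Hao2 (ENSMUSG00000027870), a peroxisomal hydroxyacid oxidase, was at 14.6 and 13.8 CPM in Ctrl at ZT4, 13.6 and 4.05 in Ctrl at ZT16, 207 and 547 in cKOt at ZT4 and 444 and 419 in cKOt at ZT16, lowest among the cKOt libraries in replicate 1 at ZT4 and above every Ctrl library (log2 fold change 5.14 ± 0.39 (SE), adjusted p = 0.000191). The lncRNA Gm13936 was at 12.8 and 32.5 CPM in Ctrl at ZT4, 4.60 and 3.51 in Ctrl at ZT16, 124 and 265 in cKOt at ZT4 and 155 and 204 in cKOt at ZT16 (log2 fold change 4.25 ± 0.34 (SE), adjusted p = 0.000212). Rhobtb1 (ENSMUSG00000019944), a BTB-domain protein, was at 133 and 159 CPM in Ctrl at ZT4, 296 and 409 in Ctrl at ZT16, 1215 and 1064 in cKOt at ZT4 and 1334 and 1192 in cKOt at ZT16 (log2 fold change 2.40 ± 0.16 (SE), adjusted p = 6.94e-05). Its Ctrl libraries at ZT16 were above those at ZT4, and all cKOt libraries were above both.

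Of the other genes that rose, Slc7a12, an amino acid transporter on the list of sex-biased kidney genes, was at 25.5, 4.08, 10.5 and 8.37 CPM in Ctrl against 107, 224, 308 and 202 CPM in cKOt (log2 fold change 4.17 ± 0.46 (SE), adjusted p = 0.00153). It was the only one of 14 genes on that list to be called, where 1.39% of all genes tested were (median of the list 0.07). Bbox1, which catalyses the last step of carnitine synthesis, was at 4.88, 3.01, 1.34 and 0 CPM in Ctrl against 13.0, 34.2, 27.1 and 32.3 CPM in cKOt, at 0 in 1 Ctrl library (3.93, adjusted p = 0.00188). Agxt2, a mitochondrial aminotransferase for glyoxylate and beta-amino acids, was at 74.0, 66.9, 41.0 and 26.5 CPM in Ctrl against 140.3, 303, 135 and 141 CPM in cKOt (1.84, adjusted p = 0.00355). Nckap5 (2.23, adjusted p = 0.000896), the sodium leak channel gene Nalcn (2.32, adjusted p = 0.00181), the ubiquitin ligase gene Dtx4 (1.85, adjusted p = 0.000716), the retinol-binding protein receptor gene Stra6l (1.65, adjusted p = 0.000567), Parvb (1.22, adjusted p = 0.00178) and Ypel2 (1.29, adjusted p = 0.00214) were also higher in cKOt.

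**Figure D3:**
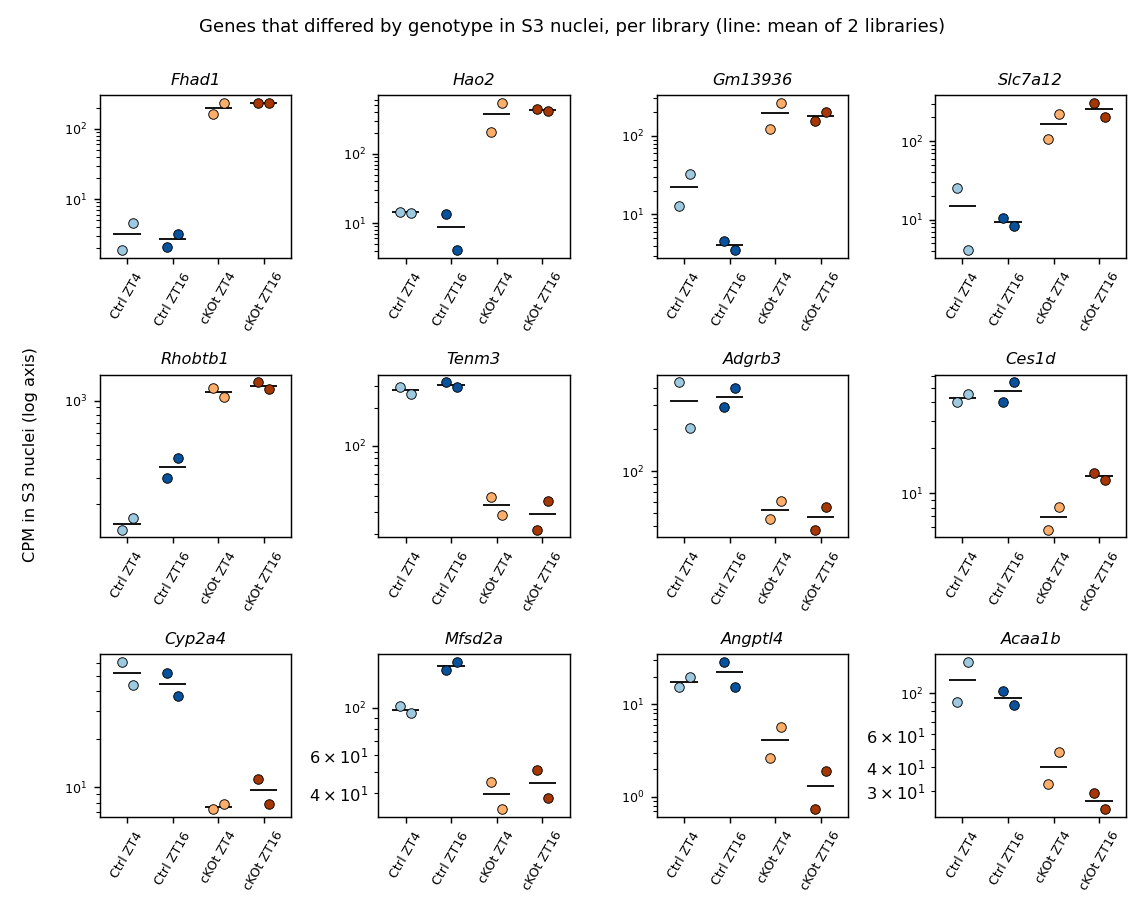
CPM on a log axis of 12 genes in S3 nuclei, in 1 panel per gene, with 1 point per library in each of the 4 groups and a short line at the mean of 2 libraries. Fhad1, Hao2, Gm13936, Slc7a12 and Rhobtb1 lie higher in every cKOt library than in any Ctrl library, and Tenm3, Adgrb3, Ces1d, Cyp2a4, Mfsd2a, Angptl4 and Acaa1b lie lower.

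Among genes lower in cKOt, Tenm3 (ENSMUSG00000031561), a teneurin that acts in cell adhesion, was at 295 and 257 CPM in Ctrl at ZT4, 321 and 294 in Ctrl at ZT16, 39.5 and 28.4 in cKOt at ZT4 and 21.6 and 36.4 in cKOt at ZT16, a narrow band in each genotype with no overlap (log2 fold change -3.23 ± 0.19 (SE), adjusted p = 6.84e-05). Adgrb3, high in S3 against PCT as given above, was at 438, 203, 292 and 396 CPM in Ctrl against 44.7, 60.6, 37.7 and 55.4 CPM in cKOt (log2 fold change -2.75 ± 0.26 (SE), adjusted p = 0.000686). Cdh2, N-cadherin, was at 131, 106, 197 and 256 CPM in Ctrl against 70.9, 58.7, 69.5 and 83.7 CPM in cKOt (-1.22, adjusted p = 0.00243), and the Ctrl library nearest to cKOt was replicate 2 at ZT4. Gfra1, a co-receptor for the growth factor GDNF, was at 59.0, 61.5, 56.7 and 58.0 CPM in Ctrl against 21.8, 27.0, 8.50 and 14.7 CPM in cKOt (-1.82, adjusted p = 0.000723). Ryr2, an intracellular calcium release channel, was at 114, 126, 127 and 154 CPM in Ctrl against 45.7, 36.6, 41.0 and 41.3 CPM in cKOt (-1.66, adjusted p = 0.000212), and Ano4, of the anoctamin family, at 77.4, 70.3, 45.4 and 40.2 CPM in Ctrl against 7.79, 15.5, 9.97 and 7.61 CPM in cKOt (-2.45, adjusted p = 0.00028). The kinase gene Sik1 (-1.53, adjusted p = 0.00141) and Npas3, a transcription factor of the bHLH-PAS family (-2.59, adjusted p = 0.00162), fell as well. So did Vmn1r18 (-0.95, adjusted p = 0.00422) and Vmn1r184 (-1.57, adjusted p = 0.0071).

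Of the other genes that fell, Ces1d, a carboxylesterase that hydrolyses lipid and drug esters, was at 40.2, 45.6, 40.0 and 54.3 CPM in Ctrl against 5.72, 8.07, 13.6 and 12.2 CPM in cKOt (log2 fold change -2.24 ± 0.18 (SE), adjusted p = 0.000212). Cyp2a4, a steroid hydroxylase, was at 61.2, 43.4, 52.1 and 37.2 CPM in Ctrl against 7.27, 7.85, 11.3 and 7.88 CPM in cKOt (log2 fold change -2.48 ± 0.20 (SE), adjusted p = 0.000212), with which the near-identical Cyp2a5 can share reads. Cyp27a1, the sterol 27-hydroxylase, was at 28.5, 34.8, 39.8 and 28.6 CPM in Ctrl against 16.9, 15.3, 13.3 and 10.3 CPM in cKOt (-1.25, adjusted p = 0.00641) and was the only one of 17 oxysterol, bile acid and sterol genes tested to be called (against 1.39% of all genes tested). Of the 17, 14 had log2 fold changes below 0, with a median of -0.33 against 0.00 for all genes. Cyp27a1 overlaps Prkag3, a regulatory subunit gene of AMP-activated kinase, which also fell (-3.79, adjusted p = 0.000322), so their reads cannot be separated with certainty. Of 20 genes of fatty acid oxidation and PPAR alpha, the nuclear receptor that drives them, 3 fell and none rose (against 1.39% of all genes tested), with 16 of 20 log2 fold changes below 0 and a median of -0.38 against 0.00 for all genes. Angptl4, an inhibitor of lipoprotein lipase, was at 15.4, 19.6, 28.9 and 15.4 CPM in Ctrl against 2.60, 5.67, 0.733 and 1.90 CPM in cKOt (log2 fold change -3.14 ± 0.35 (SE), adjusted p = 0.00173). Acaa1b, a peroxisomal thiolase, was at 89.0, 147, 102 and 86.1 CPM in Ctrl against 32.5, 48.2, 29.3 and 23.9 CPM in cKOt (log2 fold change -1.68 ± 0.20 (SE), adjusted p = 0.0019). Acadl, the long-chain acyl-CoA dehydrogenase, was at 75.1, 86.2, 99.4 and 107 CPM in Ctrl against 54.3, 66.3, 52.6 and 51.1 CPM in cKOt (-0.70, adjusted p = 0.0237), but was lost when any library but cKOt at ZT4 replicate 2 was left out, with adjusted p up to 0.116. Mfsd2a, a lysophospholipid transporter outside that list, was at 101, 94.6, 149 and 164 CPM in Ctrl against 45.2, 33.6, 51.0 and 38.0 CPM in cKOt (-1.56, adjusted p = 0.000716). The summed level of the list was 4902 to 5763 CPM in Ctrl and 3875 to 4550.3 CPM in cKOt in S3 and 1883 to 2890.5 CPM in Ctrl and 1517 to 2490.1 CPM in cKOt in PCT. Members that were not called included Slc27a2 (-0.47, adjusted p = 0.357), Cd36 (-0.18, adjusted p = 0.816) and Acadm (0.28, adjusted p = 0.832).

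The remaining lists had few calls. None of the 18 S3 markers was called (median 0.04), nor any of 8 pan-proximal markers, of 16 genes of glutathione and oxidant defence, of 11 injury and repair genes tested or of 12 immediate early and heat shock genes, although all 12 of the last had log2 fold changes above 0 (median 0.53). The summed level of these 12 was 247 to 538 CPM in Ctrl, 792 and 226 CPM in cKOt at ZT4 and 718 and 376 CPM in cKOt at ZT16, so it was above Ctrl in replicate 1 of cKOt and not in replicate 2. Of 19 organic ion and drug transporters, Slc22a5, the carnitine transporter, fell (-0.95, adjusted p = 0.0161), but not without Ctrl at ZT4 replicate 2 (adjusted p = 0.056), Ctrl at ZT16 replicate 1 (adjusted p = 0.0588) or cKOt at ZT16 replicate 2 (adjusted p = 0.0866). Of 16 amino acid transport genes only Slc7a12 was called. Over all genes tested the share called was 1.39%, and 1 call in a list of this size is too few to set it apart.

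Some markers of S1 and S2 were higher in cKOt S3 nuclei. Of 14 markers, 3 rose (Slc5a12, Slc5a2 and Gatm, median of the list 0.40), and of 14 sugar transport and gluconeogenesis genes, Slc5a2 and G6pc rose, where 1.39% of all genes tested were called. Slc5a12, a lactate transporter of the early tubule and a gate gene of the PCT nuclei, was at 164, 154, 63.4 and 103 CPM in Ctrl against 182, 218, 183 and 245 CPM in cKOt (0.85, adjusted p = 0.0467). Gatm, which makes the precursor of creatine, was at 43.6, 34.2, 30.1 and 48.9 CPM in Ctrl against 84.7, 67.0, 93.7 and 95.9 CPM in cKOt (1.12, adjusted p = 0.0122). The averaged call of Slc5a12 was lost without any library but Ctrl at ZT16 replicate 2, that of Slc5a2 without any but cKOt at ZT4 replicate 1, that of G6pc without any Ctrl library or cKOt library at ZT16, and that of Gatm without Ctrl at ZT4 replicate 2 or cKOt at ZT16 replicate 1, with adjusted p up to 0.172, 0.16, 0.114 and 0.0604. Without nuclei in the PCT gate, the calls of Slc5a12 and Slc5a2 were lost too, a choice that uses Slc5a12 itself. The summed level of the S1 and S2 list was 2352 to 3222 CPM in Ctrl and 3055 to 3583 CPM in cKOt, and the share of S3 nuclei near the gate was larger in cKOt as given above. With a gate of 3 UMIs the log2 fold changes were 0.58 for Slc5a12 (adjusted p = 0.272), 0.51 for Slc5a2 (adjusted p = 0.201), 0.84 for Gatm (adjusted p = 0.0679) and 1.06 for G6pc (adjusted p = 0.0876), so none was called, and that of G6pc stayed close to its value in all S3 nuclei (1.12, adjusted p = 0.0307). Of the 208 averaged calls, 187 were called with that gate. Among the 3598 nuclei led by the S3 list, G6pc had 1.00 (adjusted p = 0.137) and 180 of the 208 were called. The other 3 genes also missed the threshold there, but the S1 and S2 list that chose those nuclei holds them, so the choice itself lowers their levels.

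To see which genotype differences in S3 departed from those in PCT, the difference of the 2 changes was tested within the same mice. It was called for 134 of 14526 genes (0.922%), 66 with a more positive and 68 with a more negative change in S3. With the gate of 3 UMIs the calls were 45 more positive and 66 more negative, and among nuclei led by the S3 list 35 and 62. The markers of S1 and S2 moved with the positive side, since 14 of 14 had a more positive change in S3 (median 0.53 against -0.01 for all genes) and 6 were called (Slc5a12, Slc5a2, Slc6a19, Slc7a7, Slc34a1 and Gatm), whereas with the gate of 3 UMIs none of the 6 was called (adjusted p = 0.0709 to 0.523). This list holds both genes that chose the PCT nuclei, and its part in the other positive differences was not tested. The direction was not particular to it. All 6 TAL markers (median 0.55), 5 of 5 intercalated (0.68) and 5 of 5 podocyte markers (1.13) were positive too, none of them called. All 5 collecting duct markers were negative (median -0.57), and the other lists of foreign cell types had both signs. Tenm3 had a PCT level of 15.4, 21.6, 12.5 and 33.6 CPM in Ctrl against 24.1, 18.8, 17.6 and 23.3 CPM in cKOt, overlapping between genotypes, and its change in S3 departed from that (difference in log2 fold change -3.34 ± 0.28 (SE), adjusted p = 0.000256). Hao2 rose in both but further in S3, its PCT level being 32.2, 33.3, 62.2 and 38.4 CPM in Ctrl against 63.7, 157, 124 and 217 CPM in cKOt (difference in log2 fold change 3.43 ± 0.23 (SE), adjusted p = 6.89e-05). In Ctrl, Hao2 was thus lower in S3 than in PCT, and in cKOt higher. Gm13936 reached at most 33.3 CPM in PCT (difference in log2 fold change 2.53 ± 0.20 (SE), adjusted p = 0.000256). Cdh2 stood at 110.2, 117, 160.4 and 213 CPM in Ctrl against 152, 223, 157 and 155 CPM in cKOt in PCT, where groups overlapped (difference in log2 fold change -1.45 ± 0.16 (SE), adjusted p = 0.00198).

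The same pattern, a lower level in cKOt S3 and overlapping genotypes in PCT, was seen for Npas3 (difference -2.33, adjusted p = 0.00196), the cilia-associated gene Cfap69 (-1.20, adjusted p = 0.00247), the phospholipase gene Plcb4 (-1.09, adjusted p = 0.00346) and G0s2, an inhibitor of adipose triglyceride lipase (-1.15, adjusted p = 0.00441). In S3 alone, the calls of Cfap69, Plcb4 and G0s2 were lost in 6, 3 and 10 of 19 other settings, with adjusted p up to 0.154, 0.0912 and 0.155. Ryr2 (-1.04, adjusted p = 0.0046) and Sik1 (-1.09, adjusted p = 0.0046) also fell further in S3 than in PCT. Agxt2 (1.15, adjusted p = 0.00247) and the lncRNA Gm20400, antisense to Slco1a6 (1.19, adjusted p = 0.00178), were shifted toward higher levels in S3. Fhad1 was at no more than 23.7 CPM in any PCT library, and its larger rise in S3 (difference 2.83, adjusted p = 0.0216) was not called without Ctrl at ZT16 replicate 1 (adjusted p = 0.265), Ctrl at ZT16 replicate 2 (adjusted p = 0.0667), cKOt at ZT16 replicate 1 (adjusted p = 0.054) or Ctrl at ZT4 replicate 1 (adjusted p = 0.0507). Apart from the S1 and S2 markers, the other genes of this paragraph and the last kept their call for the difference under all 12 settings run. The total was 24 without Ctrl at ZT16 replicate 1, 38 and 52 without cKOt at ZT16 replicate 1 and 2, and 211 without cKOt at ZT4 replicate 2.

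**Figure D4:**
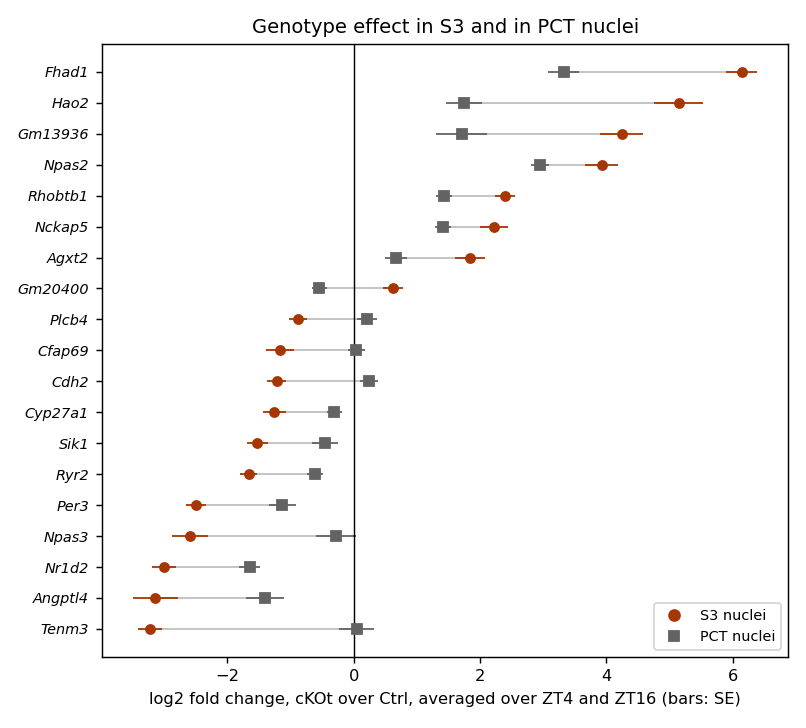
Averaged log2 fold change (cKOt over Ctrl) with its SE for 19 genes, circles for S3 and squares for PCT nuclei, a grey line joining both values of a gene. Tenm3 stands at -3.23 in S3 and 0.05 in PCT, and Hao2 at 5.14 and 1.75.

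Clock genes differed between the segments too. Of 19 tested, 3 were called for the difference in the genotype effect, against 0.922% of all genes tested. Nr1d2 was at 183, 171, 21.5 and 22.4 CPM in Ctrl against 26.9, 33.6, 9.65 and 16.4 CPM in cKOt in PCT and fell more in S3 (difference in log2 fold change -1.34 ± 0.13 (SE), adjusted p = 0.00108). In Ctrl at ZT16 its level was nearer to cKOt in PCT than in S3, so this difference overlaps with the difference in the Ctrl time effect given below. Per3 likewise fell more in S3 (difference in log2 fold change -1.39 ± 0.18 (SE), adjusted p = 0.00461). Npas2 rose more in S3 (1.00, adjusted p = 0.0206), a call lost without Ctrl at ZT16 replicate 1 (adjusted p = 0.0941), cKOt at ZT16 replicate 1 (adjusted p = 0.0774) or cKOt at ZT16 replicate 2 (adjusted p = 0.073). Rhobtb1 was at 333, 379, 1932 and 2189.8 CPM in Ctrl against 2362, 2158, 2487 and 2201 CPM in cKOt in PCT, so its Ctrl level at ZT16 was near that of cKOt in PCT but not in S3, and its genotype effect was larger in S3 (difference in log2 fold change 0.98 ± 0.10 (SE), adjusted p = 0.00153).

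The difference between segments in the time effect of Ctrl mice was called for 43 of 13582 genes (0.317%), 17 more positive and 26 more negative in S3. Nr1d2 alone of the named genes kept this call under all 12 settings. From ZT4 to ZT16 it went from 128 and 139.7 to 66.5 and 68.0 CPM in S3, but from 183 and 171 to 21.5 and 22.4 CPM in PCT (difference in log2 fold change 2.01 ± 0.16 (SE), adjusted p = 0.000359). Arntl rose less in S3 (-1.93, adjusted p = 0.00511), its PCT level in Ctrl going from 12.3 and 10.6 to 187 and 204 CPM. It missed the threshold without Ctrl at ZT4 replicate 2 (adjusted p = 0.11) or Ctrl at ZT16 replicate 1 (adjusted p = 0.0827). Rhobtb1 also rose less in S3 (-1.28, adjusted p = 0.00511), again not without Ctrl at ZT4 replicate 2 (adjusted p = 0.055) or Ctrl at ZT16 replicate 1 (adjusted p = 0.106). The count was 24 with the gate of 3 UMIs and 26 among nuclei led by the S3 list. It was 11 and 8 without Ctrl at ZT4 replicate 1 and 2, 1 and 5 without Ctrl at ZT16 replicate 1 and 2, 5 and 13 without cKOt at ZT16 replicate 1 and 2, and 76 and 70 without cKOt at ZT4 replicate 1 and 2.

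A set of genes varied widely between mice of the same group, and was singled out after its values were seen. Keg1, a glycine N-acyltransferase-like gene on the pan-proximal list, was in the order of replicates 1 and 2 at ZT4 and then ZT16 at 4219.6, 777, 592 and 7282 CPM in the Ctrl libraries and 4293, 937, 3075 and 5148 CPM in the cKOt libraries in S3. Gclc, the catalytic subunit of the ligase that starts glutathione synthesis, was at 1911, 453, 686 and 3706 CPM in the Ctrl libraries and 2621, 644, 1719 and 1717 CPM in the cKOt libraries. Ehhadh, a peroxisomal enzyme of fatty acid oxidation, was at 362, 67.7, 62.6 and 869 CPM in the Ctrl libraries and 280.3, 57.8, 124 and 395 CPM in the cKOt libraries. These genes were low together in Ctrl at ZT4 replicate 2, Ctrl at ZT16 replicate 1 and cKOt at ZT4 replicate 2, as was Slc22a19 (389, 183, 115 and 582 CPM in the Ctrl libraries and 582, 114, 425 and 488 CPM in the cKOt libraries). In PCT, Keg1 was again lowest in these 3 libraries, at 4312, 694, 431 and 7753 CPM in the Ctrl libraries and 3951, 544, 2127 and 4330.4 CPM in the cKOt libraries. Ehhadh was not, since cKOt at ZT4 replicate 2 had 95.4 CPM in PCT, above the 62.0 CPM of replicate 1, and Gclc ran only from 116 to 288 CPM there. Without the 3 low libraries, a fit with 5 libraries and 1 residual degree of freedom called 767 genes for the averaged genotype contrast, 200 of the 208 among them.

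**Figure D5:**
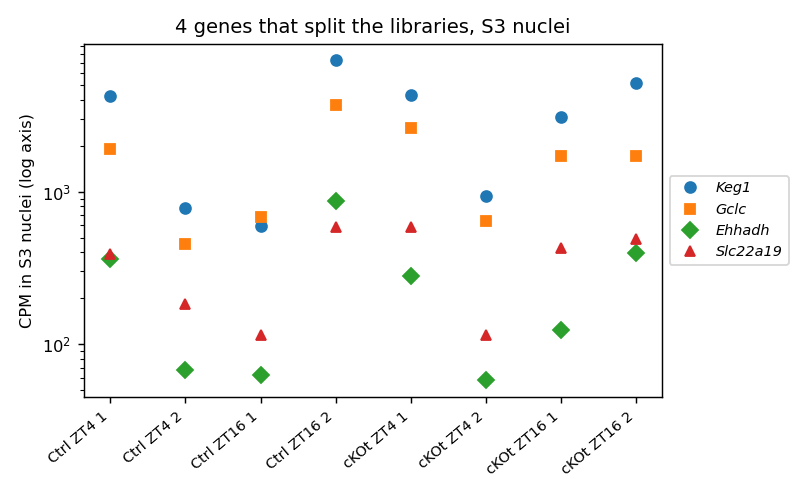
CPM on a log axis of Keg1, Gclc, Ehhadh and Slc22a19 in the S3 nuclei of each of the 8 libraries, with 1 marker shape per gene. All 4 genes are low in Ctrl at ZT4 replicate 2, Ctrl at ZT16 replicate 1 and cKOt at ZT4 replicate 2, and Keg1 runs from 592 CPM to 7282 CPM.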

How the data were processed

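Kidney nuclei of 8 mice were profiled with 10x Genomics 3′ chemistry after DAPI sorting. The authors deposited raw UMI counts per gene and barcode for each library. The submitters' processing notes name bcl2fastq 2.20, Cell Ranger 7.1.0, Seurat 5 and GRCm39, whereas the study's methods name an mm10 reference for these nuclei. The only coordinates printed are therefore those of the promoters, which are on GRCm38.p6 from RefSeq. The strand setting was not given in the sources used here. Symbols and biotypes came from the files and the reference annotation, which matched 31674 of 32285 identifiers. UMIs of the nuclei in the gate were summed per library (2655746 to 6757019), and a gene was tested where both replicates of some group in the contrast had 5 counts or more, with edgeR 4.0.16 in R 4.3.3 (TMM, quasi-likelihood, 4 group means, adjusted p under 0.05). The S3 and PCT changes were compared with library as a term. Sums over nuclei of 1 mouse count as 1 sample. CPM of single genes are scaled with TMM factors over the 8 S3 sums, or over S3 and PCT sums together where PCT is named. CPM of summed lists and of the classes of nuclei around the gate are not scaled. The tests were run on simulated data first, with 200 genes changed. For Ctrl time, 21% of 2-fold and 93% of 4-fold changes were found, with 5.79% of calls on unchanged genes. For averaged genotype the values were 78, 100 and 8.72%. Alternatives were DESeq2 1.42.0, no filter, other gates, equal nuclei, lncRNAs and mRNAs apart, a replicate block and omission of each library, and some gates and the omission of the libraries low in Keg1 were chosen after seeing the data.

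Genes were named by a rule: the gate genes, the clock list, up to 10 called genes with the smallest p per contrast and direction whose replicates did not overlap, called or most abundant listed genes, and the largest S3 to PCT ratios. The members and lists were chosen with earlier results of these data known. Promoters came from RefSeq (33 of 41 genes looked up had an entry). Nuclei were assigned by gate only, with no clustering, and some genes are not reported here. There was no removal of doublets or free RNA.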

Additional observations from a re-analysis of the deposited data

Results flagged for a closer look

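Within the same mice, the genotype effect differed between S3 and PCT nuclei for 134 genes by a test of the difference itself, with edgeR and library as a term. The 10 with the smallest p among those whose libraries did not overlap had these log2 differences (S3 change minus PCT change): Hao2 3.43, Gm13936 2.53, Gm20400 1.19, Agxt2 1.15 and Rhobtb1 0.98 were more positive in S3, and Tenm3 -3.34, Npas3 -2.33, Cdh2 -1.45, Cfap69 -1.20 and Plcb4 -1.09 more negative.

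The time effect in Ctrl differed between S3 and PCT nuclei for 43 genes by the same kind of test. The differences were more positive in S3 for Nr1d2 (2.01), Slc2a5 (1.59), the fructose transporter, Gstt2 (1.26), Ttc7b (1.12) and Pxn (0.94), and more negative for Arntl (-1.93), Gm44764 (-1.50), Rhobtb1 (-1.28) and Col4a3 (-1.15). Only Nr1d2 among these kept its call in every setting run, and the 43 fell to 1 without Ctrl at ZT16 replicate 1. With 2 samples in a group, single samples that stand apart within a group could not be tested.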

How the results depend on the processing

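No named gene changed direction in any of 3127 values recomputed for 191 pairs of a gene and a comparison, of which 2574 kept their side of the threshold and 553 lost the call, and 72 pairs were called in every setting. The pairs were picked as calls of the main fit in the same mice, so a reversal was unlikely from the start. The constant direction is therefore no support for them. Counts of calls moved more, and the cause was not tested. In the order Ctrl time, genotype at ZT4, genotype at ZT16, averaged genotype, cKOt time and interaction, DESeq2 called 48, 117, 177, 346, 9 and 8 genes (201 of the 208 averaged calls among them), and no filter on low counts gave 263, 413, 539, 820, 162 and 108, with 651 and 371 for the S3 to PCT differences in genotype and time effect. An equal number of nuclei per library gave 6 calls for Ctrl time, and separate fits of lncRNAs and mRNAs 2 for cKOt time. The difference in time effect had 24 calls with a gate of 3 UMIs and 26 among nuclei led by the S3 list. The averaged genotype contrast had 767 calls without the 3 libraries low in Keg1, chosen after seeing the data. With each library left out in turn, calls ranged from 0 to 17 for Ctrl time, 12 to 55 and 6 to 158 for genotype at ZT4 and ZT16, 96 to 328 for averaged genotype, 0 to 2 for cKOt time, 24 to 211 and 1 to 76 for the S3 to PCT differences, and 0 throughout for the interaction. A group left with 1 library is then assumed to vary like the others. No label says that replicate numbers pair the mice, so they were not taken as pairs. Correlations of replicate differences were 0.54 and 0.40 between genotypes at ZT4 and ZT16, and -0.46 to 0.24 between groups of different times. With 1 replicate block for both times, 8, 47, 102, 235, 0 and 0 genes were called. That block sets the same replicate shift at both times, so it cannot check a link of equal numbers within a time. A block within each time was not run, so whether such a link changes the calls was not tested. Depth limits the low genes, Nr1d1 and Dbp at ZT16 having 6 and 9 UMIs.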

Other observations

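Csf1r, the receptor of macrophage colony-stimulating factor and a marker of macrophages, was at 146 and 111 CPM in Ctrl at ZT4, 178 and 160.3 in Ctrl at ZT16, 68.6 and 123 in cKOt at ZT4 and 62.6 and 88.3 in cKOt at ZT16 in S3 nuclei, and at 2.43 to 5.44 CPM in PCT nuclei of the same libraries. Ptprc, which marks leukocytes in general, was at 2.84 to 9.39 CPM in S3. The genotype contrast of Csf1r did not pass (-0.79, adjusted p = 0.0989). Csf1r overlaps Hmgxb3 on the opposite strand. Kap, a kidney gene driven by androgen, did not pass the genotype contrast either, at 1608 to 2318 CPM (-0.02, adjusted p = 0.983).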
